A study of Mus musculus with 5 samples.

Results

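The clustered histone genes are the genes that supply most new histone protein when a cell copies its DNA. Here they were chosen by name, as the genes called Hist1h, Hist2h, Hist3h or Hist4h with no name ending in -ps, and no expression value was used to choose them. This gave 69 of the 55335 genes measured, namely 6 genes of the linker histone H1, 20 of H2A, 18 of H2B, 12 of H3 and 13 of H4. They were measured by RNA sequencing in bone marrow HSCs (haematopoietic stem cells). The sort took lineage-negative cells with Kit, Sca-1 and CD150 on their surface and no CD48. The 5 libraries come from mice of 3 weeks, of strain C57BL/6J by the labels, although the study's methods place the lost Csf1r allele on C3H/HeJ mice. They hold small pools of cells (90, 90 and 80 cells for wild-type 1, 2 and 3, and 80 and 86 for RankCre-ki 1 and 2, if the number that ends each library name is read as a cell number). The RankCre-ki mice carry 1 RankCre-ki allele with 1 wild-type allele, and for Csf1r a floxed allele beside a lost allele (Csf1r fl/-), while the control mice are labelled wild-type. According to the study this Cre acts in embryonic macrophages but spares the rest of the blood, and the mice lack these macrophages, osteoclasts included. The comparison asks how HSCs that develop without them differ. Nothing in the labels says that each library came from a different animal, so the p-values measure the spread between these libraries, which may be technical.

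Clustered histone genes are transcribed mainly in S phase, when new DNA is packed into nucleosomes made of H2A, H2B, H3 and H4, with H1 bound to the linker DNA. Their mRNAs are unlike those of other protein-coding genes, since most have no intron and end in a conserved stem-loop in place of a poly(A) tail. The stem-loop binding protein Slbp holds this stem-loop, and the U7 particle guides the cut behind it. Some of the genes also make a polyadenylated mRNA, in particular in cells that have left the cell cycle. HSCs in adult bone marrow are mostly quiescent, but the mice used here were young. The study reports that bone marrow HSCs of RankCre-ki mice at this age cycle more than those of controls. The libraries were primed with oligo(dT), which copies RNA with a poly(A) tail, so the values describe the part of histone mRNA that such a primer reached and not the total. They are in TPM (transcripts per 1000000), which corrects for the annotated transcript length. Some annotated transcripts of members run far past the stem-loop, and the primer favours RNA with a tail. Levels of different members can thus be compared only roughly. In pools of cells, fewer cells that make a histone mRNA and less mRNA per cell cannot be told apart.

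The hairpin that ends these mRNAs was searched for within 150 bases behind the stop codon in the GENCODE M21 transcripts (build GRCm38), as 6 paired positions that open with GG and close a loop of 4 bases that starts with TT. It was found in 44 of the 67 members with a coding model, and in 10 of 18968 other protein-coding genes with enough sequence (0.0527%). One of those 10 was H2afx, the gene of the histone variant H2A.X. Members with the hairpin are shown for each class, since they carry the values described below, with the 16 bases of the hairpin in capitals.
Hist1h1c, chr13:23739512-23739527, plus strand: ccaaaaGGCTCTTTTCAGAGCCaccactcc
Hist1h2ap, chr13:21833029-21833044, minus strand: aaaaaaGGCTCTTTTCAGAGCCatc
Hist1h2ae, chr13:23570668-23570683, minus strand: aacaaaGGCTCTTTTCAGAGCCattcactt
Hist1h2bg, chr13:23571843-23571858, plus strand: cccaaaGGCTCTTTTCAGAGCCacccatac
Hist1h3e, chr13:23561903-23561918, minus strand: caaaacGGCTCTTTTAAGAGCCacctccat
Hist1h4i, chr13:22040966-22040981, minus strand: cttaaaGGCCCTTTTTAGGGCCaccacaaa
The form printed for Hist1h1c was found in 26 members, the form of Hist1h3e in 6 and the form of Hist1h4i in 2. The annotated transcript of Hist1h2ap stops 3 bases behind its hairpin, so its sequence ends there. In 22 members the transcript model ended within 100 bases of the hairpin, as for a mature mRNA without a tail. In another 22 it ran on for 151 to 4884 bases, and in 23 coding members no hairpin was found in the annotated sequence, in part because the model stops at the stop codon. At least 1 TPM in some library was reached by 12 members of the first kind, 16 of the second and 13 of the third. The most abundant member, Hist1h2ap, is of the first kind.

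Most members lie in the large cluster on chromosome 13 (56 genes), with 10 on chromosome 3, 2 on chromosome 11 and 1 on chromosome 6. By annotation 67 are protein-coding, Hist1h2al is a processed pseudogene and Hist1h2aj an unprocessed pseudogene, and 64 have a single exon. Many H2A and H2B genes stand head to head and share 1 stretch of promoter DNA, and 13 such pairs with less than 500 bases between the models were found, 175 to 305 bases apart. The DNA between the models is shown for the pairs whose H2A and H2B members gave contrasting values below, in RefSeq sequence of build GRCm38.p6. Capitals mark 3 promoter motifs, each on either strand. The first is the TATA box, searched with the letters TATAAA, and the second is the CCAAT box. The third is the octamer that POU factors bind, searched with the letters ATTTGCAT.
Hist1h2ae to Hist1h2bg, chr13:23571221-23571395, minus strand: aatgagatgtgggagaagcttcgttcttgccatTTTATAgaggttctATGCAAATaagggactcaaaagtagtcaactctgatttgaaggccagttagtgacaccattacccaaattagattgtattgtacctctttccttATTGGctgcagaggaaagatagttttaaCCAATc
Hist1h2ac to Hist1h2bc, chr13:23683949-23684198, minus strand: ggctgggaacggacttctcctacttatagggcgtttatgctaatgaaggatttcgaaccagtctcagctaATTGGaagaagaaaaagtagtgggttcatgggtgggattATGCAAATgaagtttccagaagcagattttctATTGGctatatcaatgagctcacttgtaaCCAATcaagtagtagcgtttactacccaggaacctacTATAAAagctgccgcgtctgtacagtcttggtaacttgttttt
A RefSeq promoter window (250 bases before to 50 after the start) was found for 62 members. CCAAT was present in 53 of these windows (85.5%) against 37.4% of all 32851 windows, TATAAA in 35 (56.5%) against 13.6%, and ATTTGCAT in 13 (20.97%) against 1.74%. The octamer was found in 7 of 18 H2A and 6 of 16 H2B windows and in no window of H1, H3 or H4. Windows of a head-to-head pair overlap, so the H2A and H2B counts are not independent. CCAAT was in every window of H1, H2A, H2B and H3 and in 3 of 12 of H4. These matches describe the letters in the windows only.

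Before the values, 2 properties of the libraries bear on all of them. The library names form 2 series, with wild-type 1 and RankCre-ki 2 in series 1, and wild-type 2 and 3 and RankCre-ki 1 in series 2. The study's methods name 2 tagmentation kits used for sets of the same composition, but which library had which kit is not stated in the sources used here. The same 2 libraries of series 1 also hold RNA of 4 Y-linked genes, at a sum of 76.1 and 105 TPM against at most 0.796 TPM elsewhere, although the labels give wild-type 1 as male and RankCre-ki 2 as female. Series, kit and sex of the cells thus cannot be told apart. The second property is breadth: 12801 and 16386 genes reached 1 TPM in RankCre-ki 1 and 2, and 9021 to 11084 in the wild-type libraries. Depth cannot be read from TPM, so values carry no counting error and a member listed at 0 may be below detection. As a check of the sort, all 12 HSC marker genes passed the filter on low values, with a summed level of 793 to 1391 TPM in wild-type and 1071 to 1825 TPM in RankCre-ki. Of 22 genes of cells that the sort removes, 10 passed the filter and 5 of these (Cd48, Csf1r, Klrb1c, S100a8 and Hbb-bt) were higher in RankCre-ki at an unadjusted p under 0.05 in limma, beside 6.34% of all tested genes. The 22 genes summed to 359 to 911 TPM in wild-type and 847 to 1341 TPM in RankCre-ki, most of it Ptprcap and globins, and the markers at 0 in all libraries included Cd79a, Elane, Ly6g and Adgre1. The part of such cells in the histone values was not tested.

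Clustered histone mRNA was a small part of the libraries. The 69 members summed to 2028, 367 and 459 TPM in wild-type 1, 2 and 3, and to 482 and 5121 TPM in RankCre-ki 1 and 2, which is 0.0367% to 0.512% of all TPM. The 2 libraries of series 1 were the highest, and each exceeded every library of series 2 by at least 4.21 times. Of the members, 14 were at 0 in all libraries, 13 stayed below 1 TPM and 42 reached 1 TPM in at least 1 library. Only 6 members reached 1 TPM in all 5 libraries, and 16 did so in a single library, which was RankCre-ki 1 for 8 and RankCre-ki 2 for 6 of them. Per library, 15, 17 and 15 members reached 1 TPM in wild-type and 27 and 28 in RankCre-ki, so the groups did not overlap, in the same direction as the number of all genes that reached it. By class, 6 of 12 H3 genes were at 0 in all libraries, against 1 of 6 H1, 1 of 20 H2A, 3 of 18 H2B and 3 of 13 H4 genes.

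**Figure D1:**
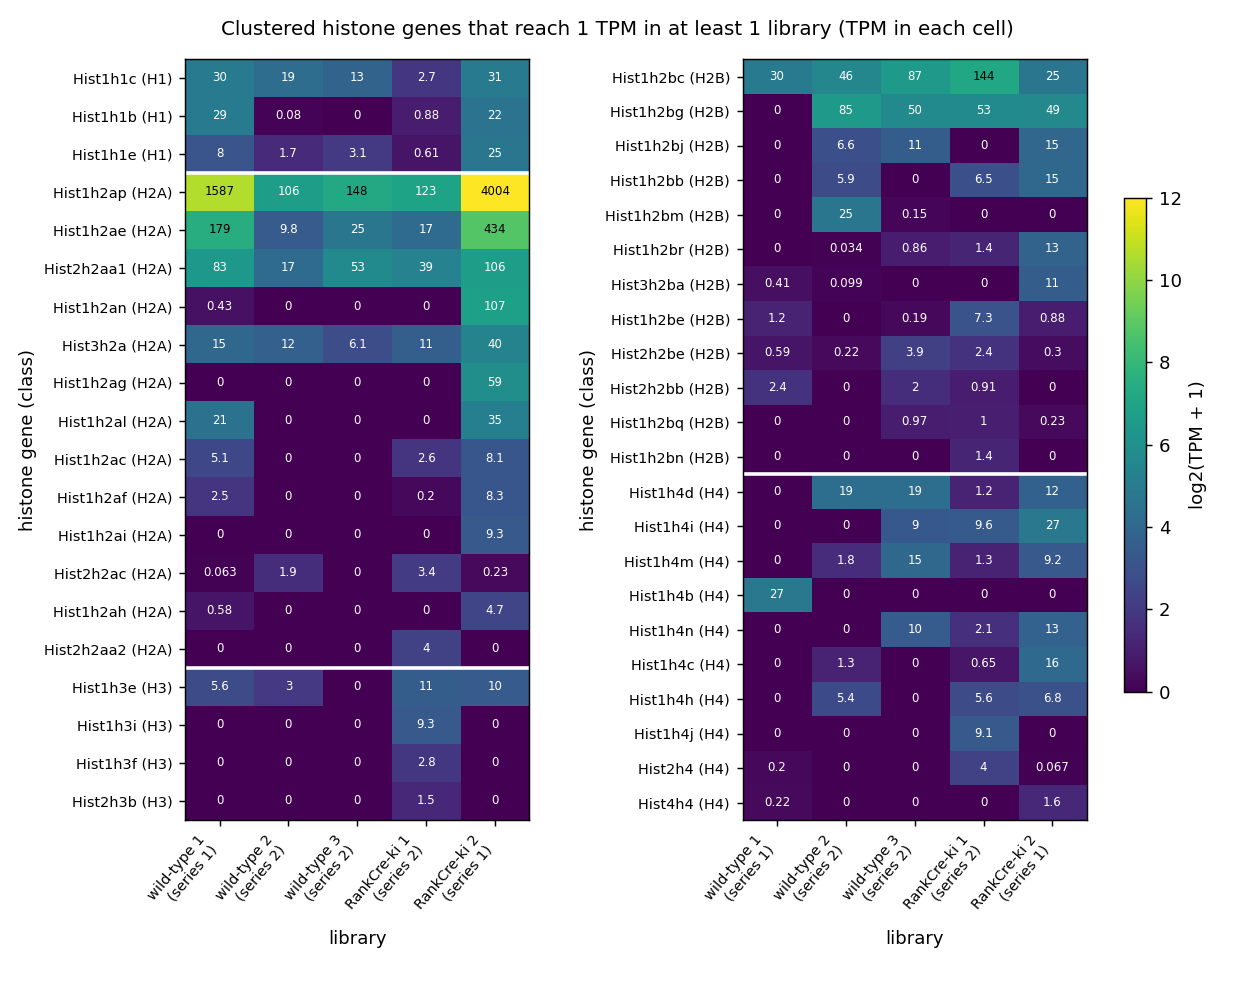
TPM of the 42 clustered histone genes that reach 1 TPM in at least 1 library, one row per gene and one column per library, with colour on the log2(TPM + 1) scale and the TPM printed in each cell. Hist1h2ap stands out at 1587 and 4004 TPM in the 2 libraries of series 1, and many rows are at 0 in most libraries.

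H2A made up most of the signal in series 1, at 93.4% and 94.1% of clustered histone TPM in wild-type 1 and RankCre-ki 2. Its 20 genes summed to 1893, 146 and 233 TPM in wild-type 1, 2 and 3, and to 201 and 4817 TPM in RankCre-ki 1 and 2. The lower of the series 1 libraries was 8.14 times the highest of series 2, while within series 2 the RankCre-ki library lay between the wild-type libraries. A single gene made up most of the H2A sum in series 1. Hist1h2ap (chr13:21833026-21833507, minus strand, 1 exon) was at 1587, 106 and 148 TPM in wild-type and at 123 and 4004 TPM in RankCre-ki. It was 78.2% of all clustered histone TPM in both libraries of series 1, and 25.6% to 32.3% in those of series 2. Without Hist1h2ap the H2A sum was 307, 41.0 and 84.4 TPM against 77.9 and 813 TPM, so the lower series 1 library was still 3.63 times the highest of series 2. The transcript of Hist1h2ap is not unique: 92.2% of its 100-base windows (the read length) occur in transcripts of other genes, 32 genes in all. Hist1h2ao shares 353 of its 381 windows with Hist1h2ap, yet stood at 0 in all libraries but RankCre-ki 1, where it was at 0.291 TPM. The study's gene counts took uniquely mapped fragments only. How the deposited TPM split reads among such genes is not stated in the sources used here. The level of 1 H2A gene against its near copies is therefore uncertain.

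Hist1h2ae and Hist2h2aa1 had the same order of libraries as Hist1h2ap. Hist1h2ae was at 179, 9.83 and 25.3 TPM in wild-type 1, 2 and 3 and at 17.2 and 434 TPM in RankCre-ki 1 and 2. It shares 30.7% of its windows with other genes, fewer than Hist1h2ap. Hist2h2aa1, one of the genes known to make polyadenylated mRNA, was at 83.2, 17.2 and 53.0 TPM against 38.9 and 106 TPM, although each of its windows occurs in another gene. All 429 windows of its twin copy Hist2h2aa2 occur in Hist2h2aa1, and Hist2h2aa2 was at 0 in 4 libraries and at 4.05 TPM in RankCre-ki 1. Hist1h2an was at 107 TPM in RankCre-ki 2, at 0.431 TPM in wild-type 1 and at 0 in the other 3. All 20 H2A genes have an annotated antisense gene across them, and whether strand was used for the TPM is not stated in the sources used here. Of the 24 antisense genes of all members, 18 were at 0 in all libraries and the highest was at 4.46 TPM.

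H2B, the partner of H2A in the nucleosome, did not share this pattern. Its 18 genes summed to 34.7, 169 and 156 TPM in wild-type 1, 2 and 3, and to 218 and 130 TPM in RankCre-ki 1 and 2, with wild-type 1 as the lowest library. H2B was 1.71% and 2.53% of clustered histone TPM in the libraries of series 1, and 34.0% to 46.1% in those of series 2. Hist1h2bc, a gene with 2 exons in its model that is known to make polyadenylated mRNA, had the highest mean of the class over all libraries. It was at 29.9, 46.1 and 87.3 TPM against 144 and 25.5 TPM, below Hist1h2bg in wild-type 2 and RankCre-ki 2. Both series 1 libraries were below all libraries of series 2. Hist1h2bg was listed at 0 in wild-type 1 and was at 84.9 and 50.4 TPM in the other wild-type libraries, with 53.2 and 48.7 TPM in RankCre-ki. Hist1h2bj had a mean of 5.70 ± 5.32 TPM in wild-type (SD, n = 3) and 7.34 ± 10.4 TPM in RankCre-ki (SD, n = 2).

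**Figure D2:**
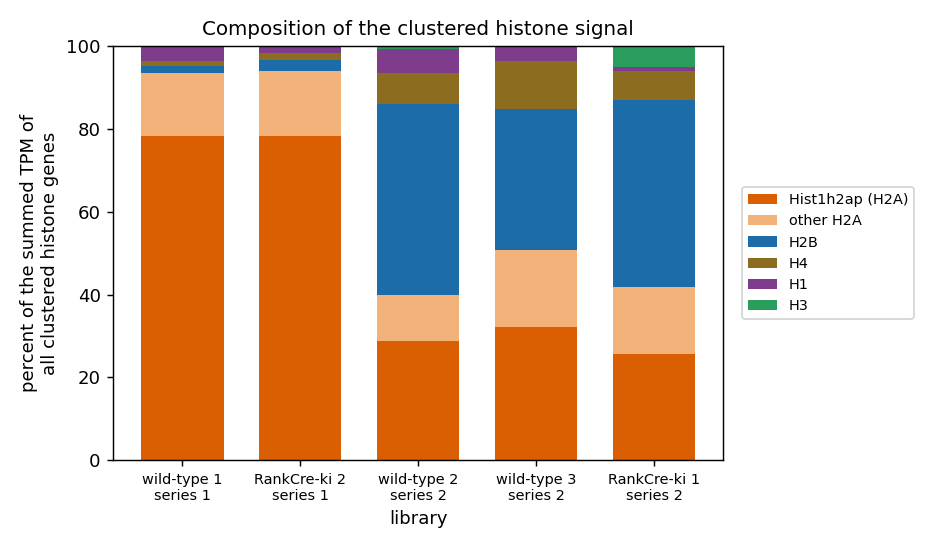
Share of each histone class in the summed TPM of all clustered histone genes, in percent, one bar per library and libraries grouped by name series, with Hist1h2ap drawn apart from the other H2A genes. Hist1h2ap takes 78.2% in both libraries of series 1 and 25.6% to 32.3% in series 2, where H2B takes 34.0% to 46.1%.

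The contrast between H2A and H2B was also seen in 2 of 4 pairs of tested genes that face each other across 1 promoter region. In the first pair printed above, Hist1h2ae was higher in both libraries of series 1 than in all of series 2. Its neighbour Hist1h2bg, 175 bases away, was lower in both, but at 48.7 TPM RankCre-ki 2 was only just below the 50.4 TPM of wild-type 3. The same was seen for Hist1h2ac, at 5.11, 0 and 0 TPM against 2.58 and 8.12 TPM, and its neighbour Hist1h2bc, 250 bases away. Hist1h2ap and its neighbour Hist1h2br differed in another way, since Hist1h2br overlapped between the series. In the fourth pair with both genes tested, Hist2h2ac and Hist2h2be, both genes overlapped between the series. Of all tested genes 17.1% were higher and 15.9% lower in series 1 without overlap. In the fit with name series described below, limma's adjusted p was 0.204 to 0.264 for Hist1h2bg, Hist1h2ac and Hist1h2bc. The 4 pairs were looked at after their values were seen.

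H1, the linker histone, summed to 67.1, 20.7 and 16.4 TPM in wild-type and to 4.37 and 78.6 TPM in RankCre-ki. Again the series 1 libraries were the 2 highest, here by at least 3.23 times. Hist1h1c, which is known to make polyadenylated mRNA, was at 30.02, 18.7 and 13.1 TPM against 2.71 and 31.0 TPM. Hist1h1b was at 29.03 and 22.4 TPM in the libraries of series 1 and at most at 0.877 TPM in the others, and Hist1h1e was at 7.99, 1.66 and 3.12 TPM against 0.611 and 25.001 TPM. Hist1h1d stayed at or below 0.332 TPM in all libraries. The testis gene Hist1h1t was at 0 in all, as was the germline gene Hist1h2ba, and the germline gene Hist1h2aa reached only 0.162 TPM in wild-type 2.

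H3 had the lowest sum of the 5 classes in 4 of 5 libraries. The 12 H3 genes summed to 5.65, 3.02 and 0 TPM in wild-type and to 24.4 and 10.6 TPM in RankCre-ki, so that the groups did not overlap. Hist1h3e was the highest H3 gene in 4 libraries, at 5.65, 3.02 and 0 TPM against 10.8 and 10.02 TPM. Hist1h3i, Hist1h3f and Hist2h3b were seen in RankCre-ki 1 alone, at 9.32, 2.84 and 1.53 TPM. The 13 H4 genes summed to 27.4, 27.7 and 54.0 TPM in wild-type and to 33.5 and 85.3 TPM in RankCre-ki, with overlap. In wild-type 1 nearly all H4 signal was Hist1h4b, at 26.97 TPM, which was at 0 in every other library. Hist1h4d was at 0, 19.2 and 19.3 TPM in wild-type and at 1.21 and 12.1 TPM in RankCre-ki, and Hist1h4m had means of 5.71 ± 8.34 (SD, n = 3) and 5.24 ± 5.62 TPM (SD, n = 2). No window of Hist1h4d occurs in another gene.

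**Figure D3:**
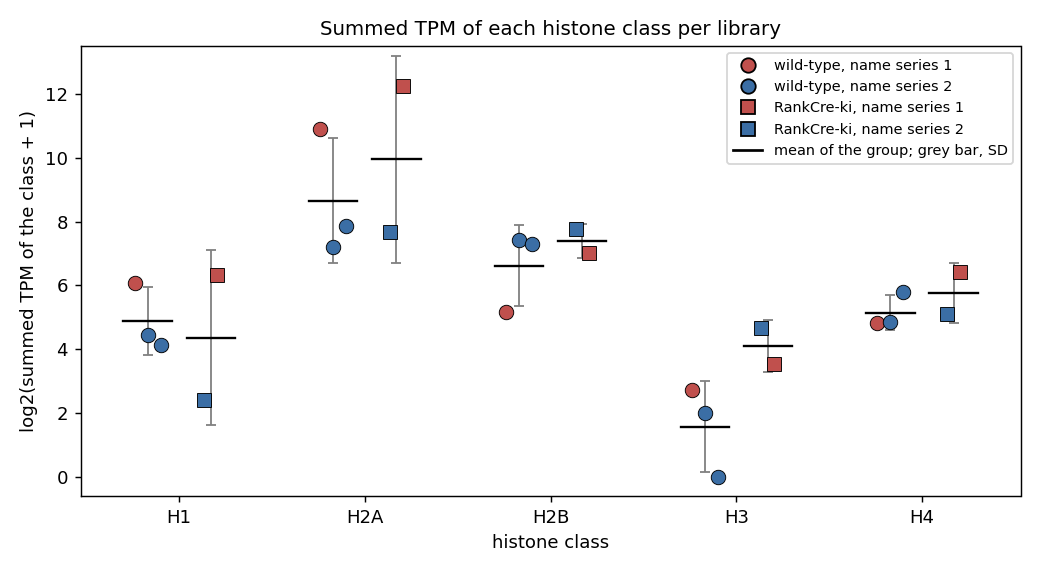
Summed TPM of each histone class on the log2(sum + 1) scale, one point per library, with circles for wild-type, squares for RankCre-ki, colour for the name series, black lines for group means and grey bars for SD. The H2A and H1 points separate by colour, H3 separates by shape, and H2B and H4 overlap between the genotypes.

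The genotypes were compared with limma on log2(TPM + 1) over the 13981 genes that reached 1 TPM in 2 or more libraries. This kept 26 members, 3 of H1, 8 of H2A, 8 of H2B, 1 of H3 and 6 of H4, and a member that passed in the group where it is high had to differ to some degree. At the threshold of the study (adjusted p of at most 0.1 and a change above 2 on the log2 scale) limma called 0 members, beside 0% of all tested genes. The study modelled read counts instead and does report genes past this threshold. The 0% thus holds only for limma on log2(TPM + 1). At an unadjusted p under 0.05 limma gave 0 members, where 6.34% of all tested genes were higher and 0.529% lower in RankCre-ki. The smallest p of a member was 0.0597 (adjusted p = 0.757), for Hist1h2br, which passed the filter only through the 2 RankCre-ki libraries. Both RankCre-ki values exceeded every wild-type value for 5 of 26 members, against 18.8% of all tested genes, and both were below every one for 0 members, against 3.71%. The members' share is thus close to that of all genes. Of the tested members 21 had a difference above 0 and 5 below 0, with a median of 1.12 beside 0.52 for all tested genes on the log2 scale. Without RankCre-ki 1 the members' median was 2.19, and without RankCre-ki 2 or wild-type 2 it was 0.45. The median of all genes moved to 0.16 under median-ratio scaling and to -0.09 under quantile normalization. The members' median was then 0.76 and 0.61, and 2 and 0 members did not overlap. The share of all genes without overlap under these scalings is not given, so these counts cannot be read against it.

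The 5 members that did not overlap were 2 of H2B, 1 of H3 and 2 of H4. Hist1h2br was at 0, 0.0342 and 0.857 TPM in wild-type and at 1.36 and 13.02 TPM in RankCre-ki, a difference of 2.21 ± 1.01 (SE) on the log2 scale. The filter on low values fixed that Hist1h2br does not overlap, and it partly fixed this difference. The lack of overlap of Hist1h2br thus carries no information of its own. Hist1h4i was at 0, 0 and 8.97 TPM against 9.59 and 26.8 TPM, with a difference of 2.99 ± 1.52 (SE). Hist1h2bb was at 0, 5.91 and 0 TPM against 6.499 and 15.04 TPM, with a difference of 2.53 ± 1.37 (SE). In all 3 the lower RankCre-ki library lay less than 1 TPM above the highest wild-type library, and limma's adjusted p was 0.757 to 0.874. The others were Hist1h3e, described above, and Hist1h4h, at 0, 5.38 and 0 TPM against 5.61 and 6.80 TPM. For Hist1h2br 86.4% of windows occur in other genes. Among the 19 tested members with under 50% of windows shared, 4 did not overlap and the median difference was 1.10. The part of shared reads in these values was not tested.

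The large H2A genes show how far 1 library decided a genotype value. Hist1h2ap differed by 1.27 ± 1.55 (SE) on the log2 scale between RankCre-ki and wild-type, with a limma adjusted p of 0.976. Without RankCre-ki 2 the difference was -1.24, and without RankCre-ki 1 it was 3.77. Within series 1 the difference of Hist1h2ap was 1.34 and within series 2 it was -0.02, with 1 RankCre-ki library in each. The H2A sum gave the same picture, with a difference of 1.29 over all libraries, 1.35 within series 1 and 0.12 within series 2. Hist1h1c differed by -0.91 ± 1.14 (SE), by 0.04 within series 1 and by -2.16 within series 2.

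Name series was then put into the fit beside genotype. Limma called 5 members higher in series 1 (4.38% of all tested genes were) and 0 lower (0.322% were), at the same threshold. Hist1h2al, Hist1h1b and Hist1h2af passed the filter on low values only through the 2 libraries of series 1. The filter thus fixed that they do not overlap between the series, and it partly fixed their difference. Hist1h2ap was higher by 4.24 ± 0.39 on the log2 scale (SE, adjusted p = 0.0816), Hist1h2ae by 3.91 ± 0.62, and Hist1h1b by 4.33 ± 0.98. The other 2 were Hist1h2al, at 20.9 and 34.9 TPM in series 1 and 0 in series 2, and Hist1h2af, at 2.47 and 8.34 TPM in series 1 and at most 0.197 TPM in series 2. Series 1 lay above all of series 2 for 10 members, 7 of 8 H2A and 3 of 3 H1, beside 17.1% of all tested genes. It lay below for 2 members, Hist1h2bc and Hist1h2bg, beside 15.9% of all genes. No tested H3 or H4 gene separated the series. The H2A median was 2.18, that of H1 2.54, that of H2B -0.33 and that of H4 -0.50, beside -0.24 for all genes. The 10 members above and the medians of H2A and H1 include the 3 members whose separation the filter fixed. The calls were fragile. Without wild-type 1, RankCre-ki 1 or RankCre-ki 2 limma called 0 members and without wild-type 2 or 3 it called 2, while the difference of Hist1h2ap stayed between 3.65 and 5.01. Both genotypes, 1 library each, make up series 1, and the cause of the difference was not tested.

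**Figure D4:**
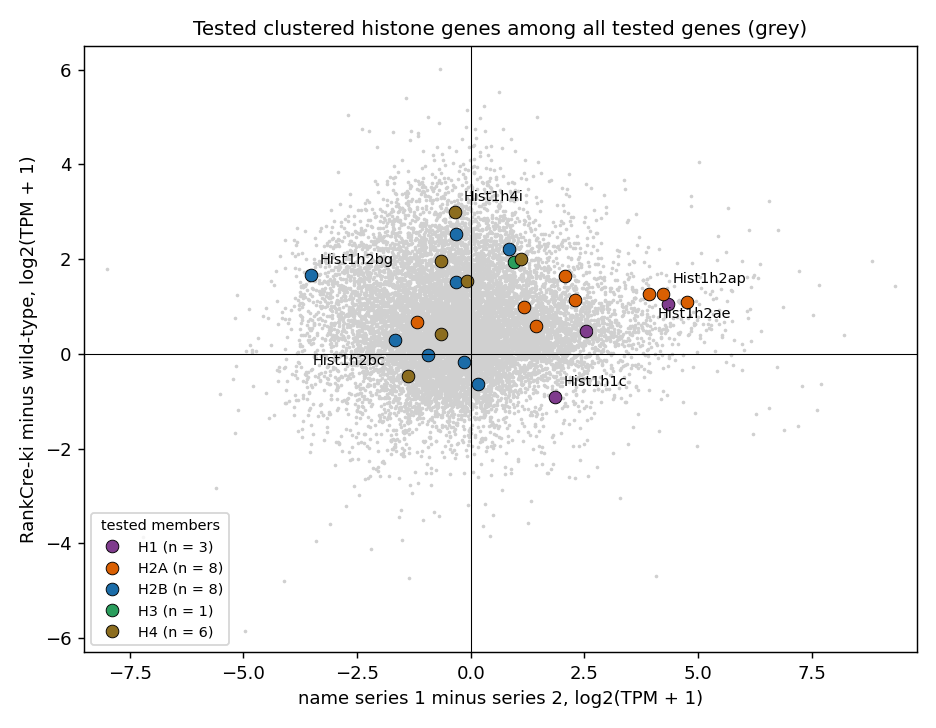
Difference between name series 1 and 2 (x axis, fit with both terms) against the difference between RankCre-ki and wild-type (y axis), both on the log2(TPM + 1) scale, for the 26 tested clustered histone genes in colour by class and for all tested genes in grey. H2A and H1 genes spread to the right, H2B genes lie to both sides, and no member lies outside the cloud of all genes on the genotype axis.

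Other short or unspliced transcripts were set beside the members. The median difference between the series was 0.12 for 521 other protein-coding genes with short transcripts (the longest under 1000 bases), -0.48 for 10507 longer genes, and -0.26 for 199 genes with 1 exon. Few other RNAs without a poly(A) tail could be tested. Rn7sk, the 7SK RNA that restrains transcription elongation, was at 66.0, 1.08 and 3.48 TPM in wild-type and at 6.56 and 35.6 TPM in RankCre-ki, again highest in both libraries of series 1. Rnu12, the U12 RNA of the minor spliceosome, was at 0, 4.05 and 0 TPM against 44.6 and 23.1 TPM, with no such order. Of 9 such RNAs found by name 4 were tested, with a median of 0.75 between the series and 1.26 between the genotypes. Of these 4, 1 was higher in series 1 without overlap (17.1% of all tested genes were) and 0 were lower (15.9% were). The 9 summed to 67.8, 167 and 3.48 TPM in wild-type and to 52.7 and 70.3 TPM in RankCre-ki. The highest sum was that of wild-type 2, a library of series 2.

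Replacement histones are also made outside S phase, most of them from ordinary polyadenylated mRNA. Their sum exceeded that of the clustered genes in 4 of 5 libraries, all but RankCre-ki 2. The 7 replacement genes of H2A and H3 summed to 4544, 9051 and 7236 TPM in wild-type and to 4543 and 3903 TPM in RankCre-ki. Of 10 tested replacement genes limma called 0, with 1 higher and 1 lower at an unadjusted p under 0.05 (6.34% and 0.529% of all tested genes were) and a median difference of 0.04. H2afx, whose H2A.X marks DNA breaks when phosphorylated and whose model carries the hairpin, was at 24.7, 9.22 and 26.8 TPM in wild-type and at 81.1 and 114 TPM in RankCre-ki. Its difference of 2.32 ± 0.72 (SE) on the log2 scale had a p of 0.0126 and an adjusted p of 0.521 in limma, and both series showed the same direction. Some windows of Hist1h2ap also occur in H2afx, so reads from those windows could be counted to either gene. H3f3b, one of the 2 genes of H3.3, was at 1953, 5126 and 3611 TPM against 1733 and 1379 TPM, a difference of -1.10 ± 0.47 (SE) with a limma adjusted p of 0.725. The other H3.3 gene, H3f3a, went the opposite way at 346, 407 and 538 TPM against 865 and 661 TPM, a difference of 0.84 ± 0.40 (SE). Both H2A.Z genes had lower values in RankCre-ki without overlap. H2afz was at 1534, 2904 and 2348 TPM against 1439.8 and 1187 TPM, and H2afv at 380, 396 and 449 TPM against 277 and 241 TPM. Cenpa, the H3 variant of centromeres, was at 11.9, 27.6 and 16.2 TPM against 33.5 and 37.2 TPM. H1f0, the linker histone of resting cells, overlapped, with 129 ± 74.2 TPM in wild-type (SD, n = 3) and 114 ± 26.6 TPM in RankCre-ki (SD, n = 2). None of these genes passed the adjusted threshold.

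**Figure D5:**
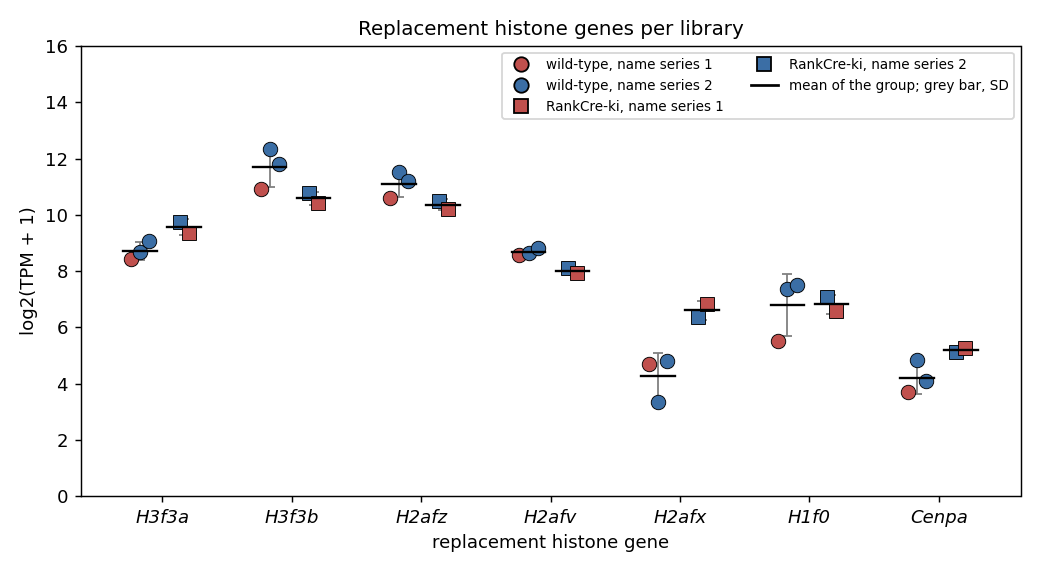
Level of 7 replacement histone genes on the log2(TPM + 1) scale, one point per library, with circles for wild-type, squares for RankCre-ki, colour for the name series, black lines for group means and grey bars for SD. H2afx and H3f3a are higher and H3f3b, H2afz and H2afv lower in both RankCre-ki libraries than in all wild-type libraries.

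The factors that make and end histone mRNA gave no call. Slbp was well detected, at 118, 108 and 265 TPM in wild-type and 252 and 108 TPM in RankCre-ki, a difference of 0.14 ± 0.60 (SE). Npat, the coactivator that cyclin E and Cdk2 switch on at histone genes, was low at 10.3, 0.411 and 1.27 TPM against 8.52 and 2.51 TPM. Casp8ap2 (FLASH), which works in histone pre-mRNA processing, was at 37.3, 78.2 and 46.5 TPM against 48.2 and 10.6 TPM. Lsm11 of the U7 particle was at or below 6.97 TPM in all libraries, and Rnu7, its RNA, was listed at 0 in all. Of the 23 tested genes of this list, 0 reached an unadjusted p under 0.05, 5 lay higher in RankCre-ki without overlap (18.8% of all tested genes did) and 0 lower (3.71% did), and the median was 0.56 beside 0.52 for all genes. The 24 histone chaperones had 0 at that p, 6 higher and 1 lower without overlap, beside the same 18.8% and 3.71%, and a median of 0.32.

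Genes of S phase and mitosis were compared between the same libraries. Of 32 listed, 30 were tested, with a median genotype difference of 0.66, 1 gene (Bub1, a mitotic checkpoint kinase) at an unadjusted p under 0.05, and 0 called. Between the series their median was -0.97, beside -0.24 for all tested genes. Of the 30, 0 were higher in series 1 without overlap (17.1% of all tested genes were) and 8 were lower (15.9% were). Pcna, the sliding clamp of DNA replication, was at 46.3, 407 and 417 TPM in wild-type and at 339 and 143 TPM in RankCre-ki. The 2 libraries with the most H2A mRNA had the least Pcna mRNA. Mki67, a proliferation marker, was at 19.7, 5.02 and 7.71 TPM against 0.614 and 0.202 TPM, a difference of -2.88 ± 1.26 (SE) that did not pass. Of those 2 libraries, wild-type 1 had the highest Mki67 value and RankCre-ki 2 the lowest. By flow cytometry the study reports more cycling among bone marrow HSCs of RankCre-ki mice than of controls. The Mki67 values, lower in both RankCre-ki libraries, go the other way, and the reason was not tested. Any link between the genes of S phase and mitosis and the histone values was not tested.

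The 8 members known to make polyadenylated mRNA differed widely in level. They summed to 160, 94.1 and 164 TPM in wild-type and to 207 and 217 TPM in RankCre-ki, a narrower range than all members together. Besides Hist1h1c, Hist1h2bc and Hist2h2aa1, Hist3h2a was at 14.8, 11.8 and 6.13 TPM against 11.3 and 40.4 TPM. Hist1h2be was at 1.22, 0 and 0.191 TPM against 7.29 and 0.875 TPM, and Hist2h2be at 0.591, 0.220 and 3.89 TPM against 2.38 and 0.298 TPM. Hist3h2ba and Hist4h4 were above 1 TPM in RankCre-ki 2 only, at 10.8 and 1.61 TPM. Of the 6 that were tested, 0 reached an unadjusted p under 0.05 in limma and 0 separated the genotypes, with a median difference of 0.44.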

How the data were processed

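The authors deposited TPM for each gene, in which reads are corrected for transcript length and scaled to a fixed total per library. The labels name build mm10, bcl2fastq 2.20.0 and featureCounts 2.0.1, but the software that made the TPM is not given in the sources used here. Positive values under 1e-06 TPM occurred (179), which whole reads cannot give. All 92 spike-in rows were at 0 and were removed. Libraries were prepared with oligo(dT) priming, template switching and PCR.

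Members were selected by gene name. The members and the gene lists were chosen with earlier results of these data known. Values were compared as log2(TPM + 1), which understates changes of low genes, for the 13981 genes that reached 1 TPM in 2 or more libraries, using limma 3.58.1 in R 4.3.3 (lmFit, eBayes with trend, two-sided, all 5 libraries, no covariate), with Benjamini-Hochberg adjustment over all tested genes. The code was tested on simulated data. Groups came from sample titles. Sums, medians and counts over members carry no test. TPM totals are fixed, so depth is unknown and a rise of some genes lowers others.

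Genes were named by rule: the 4 members of each class with the highest mean TPM, the 3 higher and 3 lower members of smallest p whose groups do not overlap, 7 replacement genes, 4 factors, and listed germline or polyadenylated members with at least 1 TPM. Other genes named were chosen after their values were seen. Read sharing was measured as 100-base windows of GENCODE M21 transcripts found in transcripts of another gene. Alternatives were the pseudocount, the filter, median-ratio scaling, quantile normalization, blocks and leaving out each library.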

Additional observations from a re-analysis of the deposited data

How the results depend on the processing

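Of the 29 tested genes named by rule, 14 kept the sign of the genotype difference in each alternative fit that gave a value. No setting that kept both RankCre-ki libraries moved any of them past the adjusted threshold. Without RankCre-ki 1 the difference of Hist1h2ap was 3.77. In that fit, and without RankCre-ki 2, limma took the spread of each gene wholly from the trend over genes and assumed that the lone RankCre-ki library varies like the others. With a pseudocount of 0.1 TPM the difference of Hist1h4d was 0.26 and that of Hist2h2be 0.051. Median-ratio scaling gave -0.20 for Hist1h2bc, -0.47 for H1f0 and -0.37 for Slbp. Quantile normalization gave -0.082 for Hist1h1e, -0.37 for Hist1h4m, -0.037 for H1f0, -0.57 for Npat and -0.54 for Lsm11. Name series as a block gave 0.14 for Hist2h2be. Leaving out 1 library at a time, the difference ran from -1.24 to 3.77 for Hist1h2ap, -1.03 to 3.55 for Hist1h2ae, -0.13 to 1.301 for Hist2h2aa1, -2.46 to 0.64 for Hist1h1c, -1.52 to 2.49 for Hist1h1e, -0.93 to 1.52 for Hist1h2bc, -0.36 to 2.86 for Hist1h2bg, -2.15 to 1.82 for Hist1h2bj, -0.41 to 0.67 for Hist2h2be, -1.91 to 0.81 for Hist1h4d, -0.66 to 1.51 for Hist1h4m, -0.61 to 0.39 for H1f0, -0.47 to 0.74 for Slbp and -0.35 to 1.47 for Lsm11.

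The replicate numbers are shared by wild-type and RankCre-ki, but libraries of the same number deviated in opposite directions from their group means (r = -0.380 and -0.195 across genes), so they share only a number. A replicate block gave 1 gene called, 1 member at an unadjusted p under 0.05 and differences of 0.52 for Hist1h2bj, 0.26 for Hist1h4d and 0.59 for Hist2h2be.

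Among all genes, leaving out 1 library gave 0 to 17 called, 17 without RankCre-ki 1 and 8 without RankCre-ki 2, where the spread came from the trend. Among members it gave 0 to 1 called, 0 to 3 at an unadjusted p under 0.05 (3 without RankCre-ki 1), 5 to 16 higher and 0 to 2 lower without overlap (2 without RankCre-ki 2), and a median difference of 0.45 to 2.19. For these fits the share of all genes at an unadjusted p under 0.05 or without overlap is not given. The counts of members at that p or without overlap thus cannot be read against it. Median-ratio scaling left 2 and quantile normalization 0 members higher without overlap, with no share of all genes given for either. Both moved the median of all genes down. The median of the replacement genes was -0.41 under median-ratio scaling and -0.52 to -0.11 without 1 library, that of the 3' end factors -0.16 under quantile normalization and 0.072 to 0.95 without 1 library, and that of the RNAs without a tail -0.017 with no filter and 2.62 with a filter of 5 TPM. The median of the histone chaperones ran from -0.29 to 0.72 without 1 library and from -0.17 to 0.69 over the other alternatives. That of the genes of S phase and mitosis ran from 0.016 to 1.18 without 1 library and from 0.17 to 1.18 over the others. The difference of the H1 sum ran from -2.46 to 1.43 without 1 library. Within series 1 the H2B sum differed by 1.87, the H3 sum by 0.80 and the H4 sum by 1.60, and within series 2 the H4 sum by -0.20. The number of detected members, on average 11.8 more in RankCre-ki at 1 TPM, differed by 15.2 above 0 TPM and by 7.5 at 5 TPM. For values not explained here the cause was not tested. Calls between the name series, an alternative added after seeing the data, numbered 0 to 4 in place of 5.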
